A study of Mus musculus with 11 samples.

Results

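The cytosolic ribosomal protein genes were taken from a gene count table of sorted CD8+ regulatory T cells (CD8+ Tregs) as every protein-coding row named Rpl or Rps followed by digits and at most the letters a, x or l, together with Rplp0, Rplp1, Rplp2 and Rpsa. Names with anything further, such as Rps3a1, Rpl22l1, the Rps6k kinases and names that carry -ps, were left out. This gave 81 genes, 50 of the large and 31 of the small ribosomal subunit, of 54532 rows. The cells were CD8+CD44+Ly49+CD122+ T cells from the spleens of wild-type mice, and each of the 11 libraries came from an independent biological replicate. The groups were young males (3 libraries, 2 to 3 months), young females (3 libraries, same ages), middle-aged males (2 libraries, 10 to 12 months, labelled Old) and middle-aged females (3 libraries, same ages). The labels name no transgene and no agent.

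Ribosomal proteins assemble with ribosomal RNA into the small subunit, which decodes mRNA, and the large subunit, which joins amino acids. Most are needed in equal numbers, and their mRNAs are among the most abundant of a T cell. In mammals these mRNAs begin with a C followed by an unbroken run of C and T, the terminal oligopyrimidine tract through which the mTOR kinase sets how strongly they are translated when T cells are activated.

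Because this tract is what the genes share at the sequence level, the 30 bases around the annotated transcription start, 15 before it and 15 from it on, are shown for 8 of them. The sequences are from RefSeq on GRCm38.p6, the assembly of the mm10 build that the processing notes name, on the strand of the gene and 5′ to 3′. Capitals mark the longest run of C and T that began with C within 5 bases of the annotated start and was at least 5 bases long.
Rps6, chr4:86857353-86857382, minus strand: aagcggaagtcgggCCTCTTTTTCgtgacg
Rplp2, chr7:141447636-141447665, plus strand: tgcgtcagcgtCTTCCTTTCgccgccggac
Rps15a, chr7:118116133-118116162, minus strand: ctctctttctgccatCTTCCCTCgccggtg
Rpl28, chr7:4792950-4792979, plus strand: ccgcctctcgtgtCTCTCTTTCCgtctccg
Rpl38, chr11:114668565-114668594, plus strand: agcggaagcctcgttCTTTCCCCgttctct
Rps18, chr17:33955651-33955680, minus strand: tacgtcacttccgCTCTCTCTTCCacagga
Rpl37a, chr1:72711245-72711274, plus strand: ttccgctcgccggtctaaaaccgcgcatgc
Rplp0, chr5:115559452-115559481, plus strand: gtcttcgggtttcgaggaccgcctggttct
The table held promoters for 61 of the 81 genes. A C followed by at least 4 bases that were each C or T stood exactly at an annotated start in 13 of these 61 (21.3%), as in Rps15a and Rpl38, against 813 of all 27025 genes with a promoter (3.01%). Within 5 bases of the start it was found in 28 of 61 (45.9%) against 21.2% of all genes. The ETS core CCGGAA, searched on both strands over the 300 bases from 250 before the start to 50 from it on, was in 33 of 61 (54.1%) against 16.7%. Rpl37a and Rplp0 are shown because they had no such run at the annotated start. That says only that these letters were not in this window.

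The libraries held 6135736 to 24394532 counts. Young male 1 and young female 1 were the shallowest, with 6135736 and 8421396 counts, and had the fewest genes detected, 13025 and 13842 against 15278 or more. The genes of the sorted cells were present in every library, with Cd8a, the CD8 alpha chain, at 642 to 1015 CPM (counts scaled to the library total with TMM factors), Il2rb, which encodes CD122, at 552 to 2625 CPM and Ikzf2, which encodes Helios, at 10.8 to 69.2 CPM. Cd4 was at 0.278 to 18.7 CPM. Middle-aged female 2 stood apart in markers of myeloid and dendritic cells and of plasma cells. Its 9 myeloid and dendritic markers summed to 1219 CPM against 30.6 to 320 CPM in the other 10 libraries, and its 5 plasma cell markers to 205.5 CPM against 1.99 to 47.99 CPM. Most of the first sum was Lyz2, at 1058 CPM. Its CD4 T cell and NK cell markers, at 27.2 and 768 CPM, lay within the range of the other libraries.

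Ribosomal protein mRNA took a large and variable part of every library, and the 2 age groups overlapped widely. The 81 genes held 7.03%, 5.22% and 5.42% of the counts in young males 1, 2 and 3, and 9.03% and 7.42% in middle-aged males 1 and 2. They held 11.04%, 6.76% and 5.31% in young females 1, 2 and 3, and 6.87%, 4.51% and 4.74% in middle-aged females 1, 2 and 3. Both middle-aged males lay above the 3 young males, whereas 2 of the 3 middle-aged females lay below all young females and the other lay among them. The mean share was 6.80% ± 2.22 (SD, n = 6) in young and 6.51% ± 1.90 (SD, n = 5) in middle-aged libraries. On the log2 scale the summed CPM differed by -0.05 between the age groups, against a spread within the 4 groups of 0.51 (SD). In these bulk samples, fewer cells of a type and less RNA per cell cannot be told apart.

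The share also went with the number that the labels give each library within its group. The libraries numbered 1 held 6.87% to 11.04%, those numbered 2 held 4.51% to 7.42% and those numbered 3 held 4.74% to 5.42%. Between libraries with the same number, the middle-aged male was above the young male for both numbers, and the middle-aged female below the young female for all 3.

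**Figure D1:**
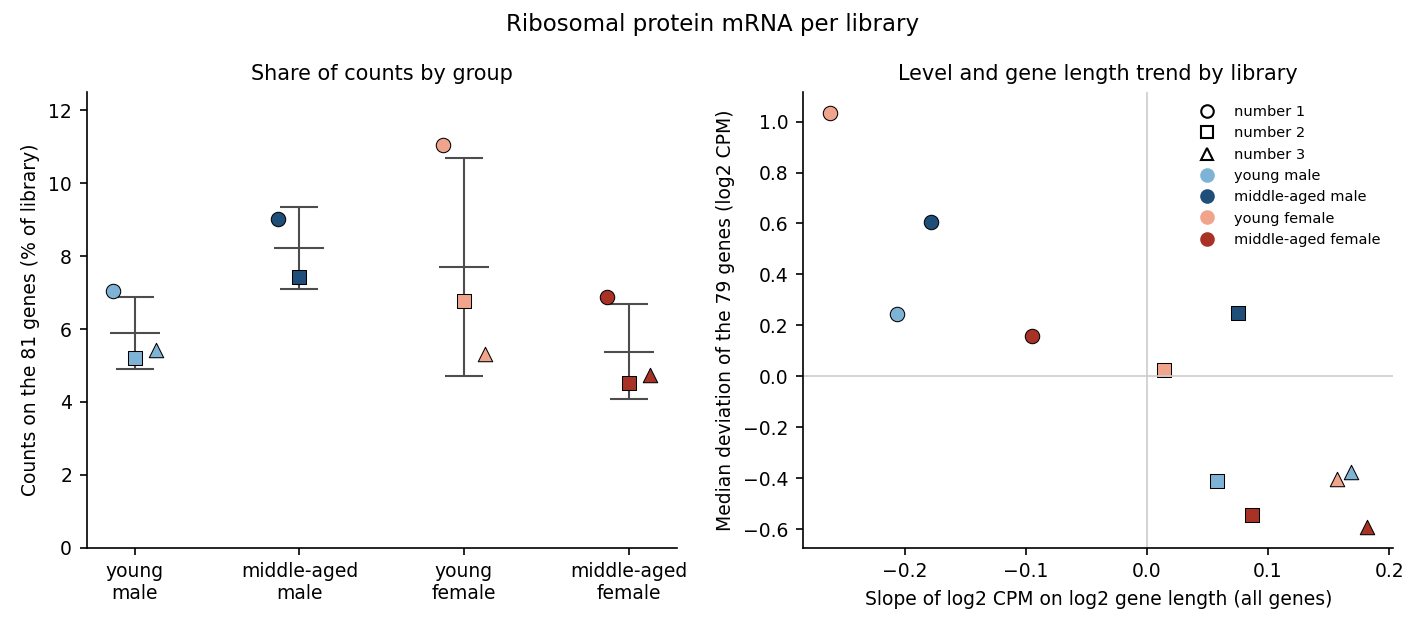
The left panel plots the percent of each library's counts on the 81 genes by group, with the group mean and SD as bars and the library number as the marker shape. The right panel plots, for each library, the median deviation of the 79 tested genes from their own mean log2 CPM. The horizontal axis is the slope of such deviations on log2 gene length over all other genes tested. Young female 1 lies highest in both, at 11.04% and 1.03, and the 4 libraries numbered 1 have slopes from -0.26 to -0.09.

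The first comparison asked whether these mRNAs differ with age when sex is taken into account. Of the 81 genes, 79 passed the filter on low counts. Rpl10l had no count in any library, which allows at most 3 counts, or 0.12 to 0.54 CPM, in each, and Rpl3l, the heart and muscle form of Rpl3, had at most 1 count. None of the 79 passed an adjusted p of 0.05 (edgeR quasi-likelihood test, Benjamini-Hochberg over 13129 genes), where 0.0229% of all genes did. None passed an unadjusted p of 0.05 either, against 2% of all genes in the higher and 0.99% in the lower direction. DESeq2 also gave 0 genes at an unadjusted p of 0.05, and limma voom with sample weights gave 3 and none after adjustment. The share of all genes at an unadjusted p was not counted for these methods. At an adjusted p of 0.05, DESeq2 called 112 and limma voom 138 of all genes, against 3 in the main model. The log2 differences, middle-aged minus young, were below zero for 66 genes and above zero for 13, with a median of -0.09 against 0.00 over all genes tested (0.00278 unrounded). The SE of a single gene was 0.35 at the median, so that differences of this size lay well inside the error of each gene. For none of the 79 did the 2 age groups fail to overlap, whereas they did so for 1.31% of all genes.

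The sign of the median changed with single libraries and with the model. Leaving out young female 1 moved it to 0.23 and leaving out middle-aged male 1 to -0.26. Without middle-aged female 2 or 3 it was 0.06 or 0.04. Without young male 1 and young female 1, an alternative added after the data were seen, it was 0.30, and a model with each library's gene length slope gave 0.03. Limma voom with sample weights on all 11 libraries gave 0.30. Males alone gave 0.58 and females alone -0.59.

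**Figure D2:**
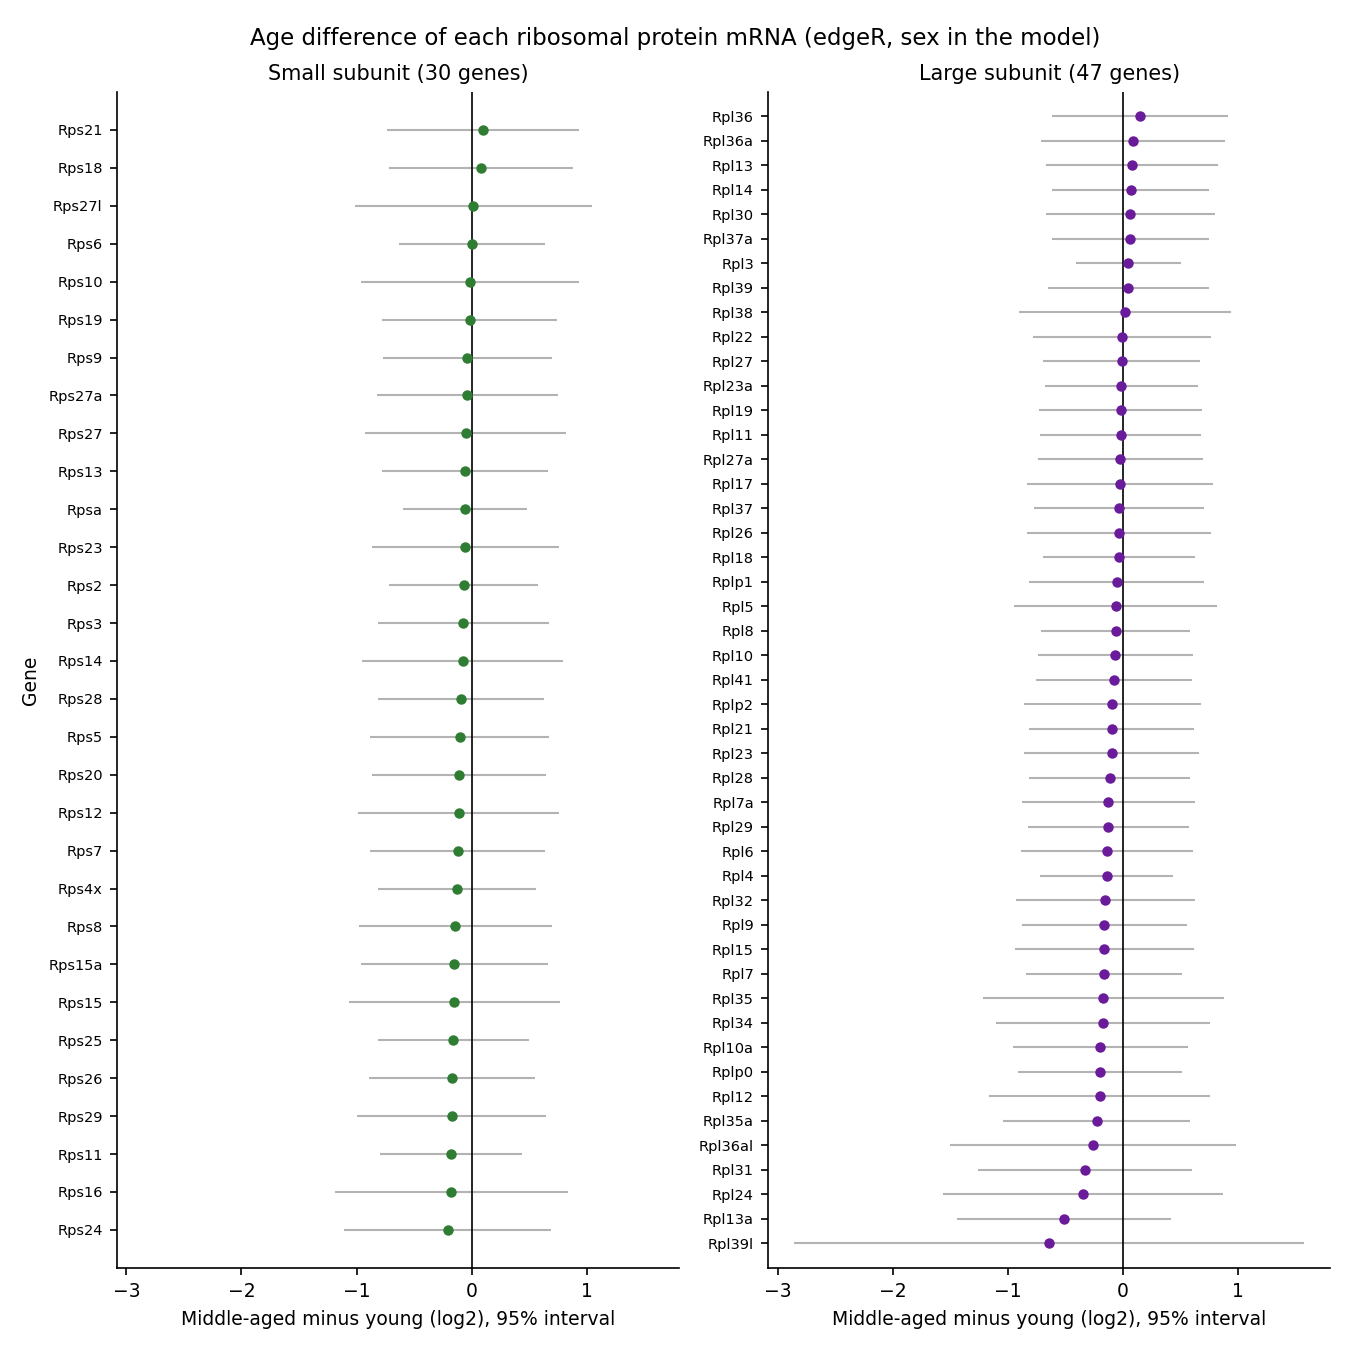
Points show the middle-aged minus young log2 difference of each tested gene from the edgeR model with sex, for 30 small subunit and 47 large subunit genes, and lines show the 95% confidence interval. Every interval includes zero, from Rpl39l at -0.64 to Rpl36 at 0.15.

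The proteins of the stalk, which recruits translation factors to the large subunit, had closely similar values. Rplp0, the base of the stalk, was at 1631, 1865 and 4259 CPM (lowest, median and highest) in the young libraries and at 2933, 2256, 2411, 1581 and 1424 CPM in middle-aged males 1 and 2 and middle-aged females 1, 2 and 3. The 2 ages overlapped, and only young male 1 and young female 1 were above the highest middle-aged library. The difference was -0.20 ± 0.33 (SE, exact permutation p = 0.665). The permutation test, here and below, compared mean log2 CPM by age without sex. The age differences with SE came from the edgeR model with sex. Rplp1 and Rplp2, which form the arms of the stalk, differed by -0.05 ± 0.35 (SE, exact permutation p = 0.926) and -0.09 ± 0.35 (SE, exact permutation p = 0.857).

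Rpl5 and Rpl11 bind the smallest ribosomal RNA of the large subunit and, when free, the p53 inhibitor Mdm2. Rpl5 was at 417, 615 and 1592 CPM (lowest, median and highest) in the young and at 1090, 757, 1027, 494 and 424 CPM in the middle-aged libraries, in the same order as above. The difference was -0.06 ± 0.40 (SE, exact permutation p = 0.978), and that of Rpl11 was -0.02 ± 0.32 (SE, exact permutation p = 0.985). The libraries numbered 1 were the highest in each age group for Rpl5. For Rpl11, middle-aged male 2 (558 CPM) was level with middle-aged female 1 (554 CPM).

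Among the small subunit genes, Rps6, the protein that S6 kinase phosphorylates below mTOR, had the smallest difference of the 79. It was at 959, 1354 and 2112 CPM (lowest, median and highest) in the young and at 2020, 1539, 1514, 982 and 892 CPM in the middle-aged libraries. The groups overlapped over almost their whole range, and the difference was 0.00 ± 0.29 (SE, 95% interval -0.63 to 0.63, exact permutation p = 1.00). Rpsa, the laminin receptor homolog, differed by -0.06 ± 0.25 (SE, exact permutation p = 0.82), Rps3, which also acts in DNA repair, by -0.07 ± 0.34 (SE, exact permutation p = 0.916) and Rps19, which is mutated in Diamond-Blackfan anaemia, by -0.01 ± 0.35 (SE, exact permutation p = 0.985). Rps14, which lies in the region deleted in the 5q- syndrome of the marrow, differed by -0.08 ± 0.40 (SE, exact permutation p = 0.933). Rps27a, made as a fusion with ubiquitin, was at -0.04 ± 0.36 (SE, exact permutation p = 0.981). Rps21 was highest in the small subunit, at 0.10 ± 0.38 (SE, exact permutation p = 0.833).

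Among the large subunit genes, Rpl13a, a part of the interferon-induced complex that blocks translation of inflammatory mRNAs, had the smallest p. It was at 57.5, 14.1 and 14.6 CPM in young males 1, 2 and 3 and at 37.5, 19.4 and 17.1 CPM in young females 1, 2 and 3. It was at 24.96 and 14.8 CPM in the middle-aged males and at 22.7, 17.4 and 12.0 CPM in the middle-aged females. The 2 shallowest libraries, young male 1 and young female 1, lay above all others, and the remaining 9 overlapped. The difference was -0.51 ± 0.43 (SE, edgeR), with an unadjusted p of 0.252 in edgeR and an exact two-sided permutation p of 0.405. Rpl31 was at -0.33 ± 0.43 (SE, exact permutation p = 0.602), and Rpl36, a small protein of the large subunit, had the highest difference at 0.15 ± 0.35 (SE, exact permutation p = 0.665). Rpl3, which reaches towards the catalytic centre, and Rpl4, which lines the exit tunnel, differed by 0.05 ± 0.21 (SE, exact permutation p = 0.844) and -0.14 ± 0.26 (SE, exact permutation p = 0.656). Rpl22, which is needed for development of alpha beta T cells, was at -0.01 ± 0.35 (SE, exact permutation p = 0.916), and Rpl38, which favours translation of Hox mRNAs, at 0.02 ± 0.42 (SE, exact permutation p = 0.926). Rpl41, the shortest of the proteins, was at -0.08 ± 0.31 (SE, exact permutation p = 0.942). Rpl13, Rpl36a and Rpl32, also named by the rule, ranged from -0.15 to 0.09. The X-linked Rpl10, Rps4x and Rpl39 were at -0.06, -0.13 and 0.05. The paralogs Rps27l, Rpl36al and Rpl39l were at 0.02 ± 0.47, -0.26 ± 0.57 and -0.64 ± 1.02 (SE), the last with 0 to 73 counts in a library. Over all 79 genes the smallest exact permutation p was 0.405, where the smallest possible with 6 and 5 libraries is 0.002.

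The 4 X-linked genes, Rpl10, Rps4x, Rpl36a and Rpl39, were among those compared between males and females. None of the 79 passed an adjusted p of 0.05 for sex (edgeR), where 0.0381% of all genes did, and none passed an unadjusted p of 0.05, where 0.754% did. The smallest unadjusted p was 0.462, and DESeq2 was not run for sex. The X-linked genes differed, male minus female, by -0.01 ± 0.31, 0.10 ± 0.31, 0.00 ± 0.37 and -0.09 ± 0.32 (SE) in that order.

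The age difference did not have the same sign in the 2 sexes. Middle-aged minus young, the mean log2 CPM was above zero in males for 78 of 79 genes, with a median of 0.59 against 0.11 over all genes, and below zero in females for all 79, with a median of -0.54 against 0.07. Rpl13a was the gene below zero in males, at -0.25. Both middle-aged males lay above all 3 young males for 39 of 79 genes, against 9.3% of all genes, and below them for 0, against 6.6%. All 3 middle-aged females lay below all 3 young females for 2 of 79 genes, against 2.76%, and above them for 0, against 4.54%. The female difference leaned on young female 1, one of the 2 shallowest libraries. The median deviation of the 79 genes was 1.03, 0.03 and -0.40 in young females 1, 2 and 3. It was 0.16, -0.54 and -0.59 in middle-aged females 1, 2 and 3. Without young female 1, the median difference between the sexes was 0.67 instead of 1.21 (edgeR). Several lists of markers of other cells and of the cell cycle had a median difference between the sexes below zero (edgeR). It was -0.98 for B cells (0 of 8 above zero) and -1.76 for myeloid and dendritic cells (0 of 8). It was -2.13 for plasma cells (0 of 4) and -2.29 for cycling cells (0 of 4). None of these markers passed the unadjusted threshold used for single genes. The median was also below zero for CD4 T cells (-1.47, 1 of 4 above zero) and NK cells (-0.68, 1 of 7). Erythroid and platelet markers were at -0.10 (3 of 7), naive T cell markers at 0.22 (5 of 6) and CD8+ Treg gate markers at 0.33 (8 of 12). The 4 cycling markers summed to 419 CPM in middle-aged female 2 and to 5.23 to 151 CPM elsewhere. The part of other cells and of cycling cells in the values of the ribosomal protein genes was not tested, beyond leaving out middle-aged female 2.

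The test of the difference between the sexes gave no gene past an adjusted p of 0.05, among the 79 or among all 13129 (edgeR quasi-likelihood test on the age by sex term, and likewise DESeq2 and limma voom). At an unadjusted p of 0.05, 22 of the 79 passed, 9 of the small and 13 of the large subunit, all with the higher difference in males, while 0.602% of all genes passed in that direction and 1.2% in either. Their differences between the sexes ran from 1.18 to 1.68 on the log2 scale. Over all 79 genes the median was 1.21 against -0.07 over all genes tested. The genes share the deviations of each library, so the 22 are not independent of each other.

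Rpl36 had the smallest p. It was at 555, 631 and 651 CPM in young males 1, 2 and 3, at 1511 and 1039 CPM in middle-aged males 1 and 2, at 1535, 897 and 699 CPM in young females 1, 2 and 3 and at 876, 573 and 589 CPM in middle-aged females 1, 2 and 3. The males did not overlap by age, and in the females the lowest young library lay above 2 of the 3 middle-aged libraries. The difference between the sexes was 1.68 ± 0.51 (SE, unadjusted p = 0.00725, adjusted p = 1.00, edgeR).

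Rps28, of the small subunit, was at 320, 257 and 327 CPM in young males and 515 and 500 CPM in middle-aged males, and at 714, 384 and 337 CPM in young females and 354, 213 and 258 CPM in middle-aged females. Again the males were apart by age and the females overlapped. The difference between the sexes was 1.55 ± 0.50 (SE, unadjusted p = 0.0103, edgeR). Rpl39, which lines the exit tunnel, had 1.47 ± 0.50 (SE, unadjusted p = 0.0129), Rps21 had 1.63 ± 0.62 (SE, unadjusted p = 0.0232) and Rplp2 of the stalk had 1.34 ± 0.61 (SE, unadjusted p = 0.04998, all edgeR). Rpl10, Rps25, Rps26 and Rpl8 were also among the 22, whereas Rps6, at 0.94 ± 0.53 (SE), and Rplp0, at 0.76 ± 0.64 (SE), were not.

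How many genes passed depended on which library was left out and on the model, and so did the share of all genes. It was 7 without young male 2, middle-aged male 1 or middle-aged female 2, where 0.758%, 0.202% and 0.373% of all genes passed in either direction. It was 8 without young female 1 or middle-aged female 3 (0.618% and 0.908% of all genes) and 10 without young male 3 (1.08%). It was 40 without young male 1 (1.3%), 51 without middle-aged female 1 (1.79%) and 53 without young female 3 (4.06%). With the library number in the model 70 of 79 passed, where 4.18% of all genes did, and with the gene length slope 61 passed, where 4.85% of all genes did. With limma voom 69 passed, where 8.16% of all genes did. The median over the 79 was above zero each time, from 0.67 without young female 1 to 1.52 without middle-aged female 1.

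**Figure D3:**
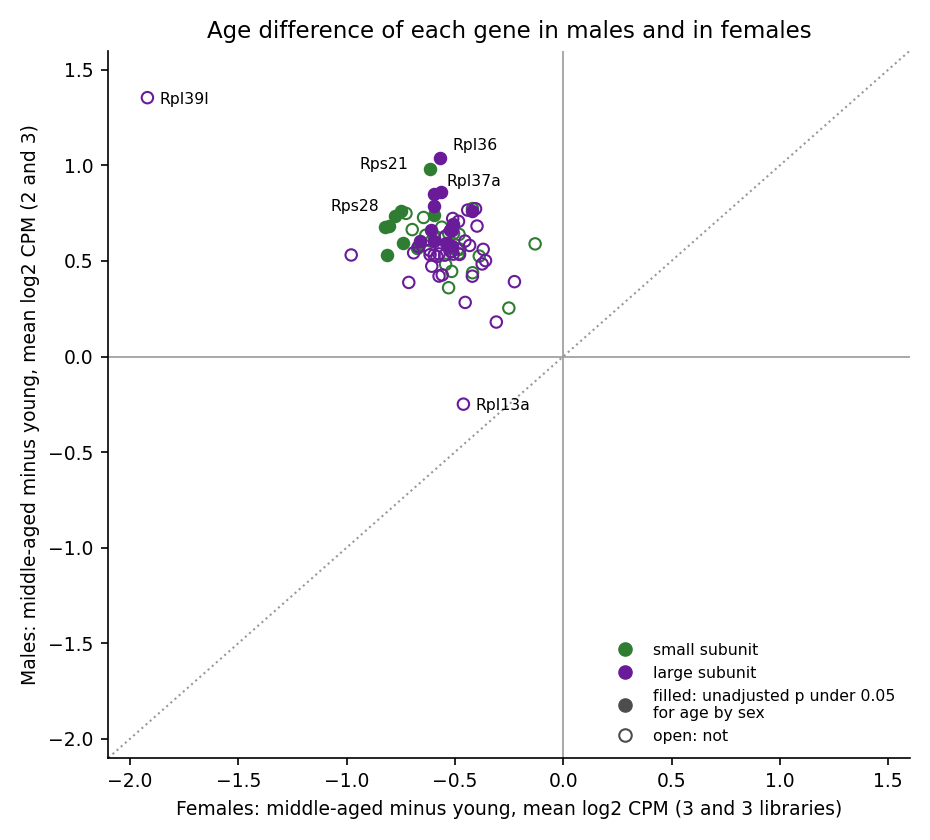
Each point is a tested gene, with its middle-aged minus young difference in mean log2 CPM in females on the horizontal axis and in males on the vertical axis. Filled points passed an unadjusted p of 0.05 for age by sex (22 of 79), and the dotted line marks equal differences. All points but Rpl13a lie above zero in males and below zero in females.

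The 81 genes had a median gene length of 1734 bases (383 for Rpl36 to 6270 for Rps15a). The 79 tested were short among the genes tested, with a median of 1739 bases against 3808, and the libraries differed in how level followed gene length. For each library a slope on log2 gene length was taken of log2 CPM minus the gene's own mean, over the other genes tested. It ran from -0.26 to -0.09 in the libraries numbered 1 and from 0.01 to 0.09 in those numbered 2. In those numbered 3 it ran from 0.16 to 0.18. The median deviation of the 79 genes from their own mean was 1.03 in young female 1, 0.60 in middle-aged male 1, 0.24 in young male 1 and 0.16 in middle-aged female 1. It was between -0.59 and 0.25 in the other 7 libraries. After each library's trend on gene length was removed, these 4 deviations were 0.81, 0.24, 0.32 and -0.10, and that of middle-aged male 2 was 0.23 instead of 0.25. Young male 1 was then above both middle-aged males, while young males 2 and 3 were below them, at -0.40 and -0.25. Young females 2 and 3 were then at -0.02 and -0.27, and middle-aged females 2 and 3 at -0.57 and -0.42.

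Genes of similar length outside the naming rule, which include Rps3a1, Fau and the mitochondrial ribosomal protein genes, had lower medians. With all genes tested put into 5 equal classes by length, in the shortest class, up to 1770 bases, the other genes had a median difference between the sexes of 0.39 and 1.66% passed an unadjusted p of 0.05, while the 41 ribosomal protein genes there had a median of 1.25 and 13 passed. In the next class, 1772 to 3106 bases, the other genes had 0.07 and 1.04%, and 25 ribosomal protein genes had 1.18 with 6 passing. For age, the median of the other genes was -0.08 in the shortest class, as was that of the ribosomal protein genes. In classes 2, 3 and 4 by length the medians did not match. The other genes had 0.04, 0.04 and 0.01, and the 25, 10 and 3 ribosomal protein genes there had -0.09, -0.08 and -0.15. The part of gene length and of the library number in the differences between the sexes was not tested beyond these values.

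Levels were compared per kb of gene length. Of the 79 genes, 74 had a mean of 171 to 4214 CPM, or 63.6 to 2268 CPM per kb, a 35.6-fold range in mRNA for proteins of one particle. Rpl36 was highest, at 2268 CPM per kb, Rpl32 was at 1978 CPM per kb, and Rpl22 was lowest of the 74. The order depended on the length used. Per kb of a single reference transcript, Rpl13 was highest, at 5402 CPM per kb, Rps15a lowest, at 113 CPM per kb, and Rpl36 was at rank 9. The low value of Rps15a came with a long reference transcript of 5179 bases. Its mean before division was 587 CPM, against a median of 700 CPM over the 74 genes. Rpl13 and Rps19 held 6.32% and 3.98% of the counts on the 81 genes.

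The other 5 genes were far below. Rpl13a, Rps10, Rpl24, Rpl36al and Rpl39l had means of 22.9, 6.17, 2.64, 3.13 and 1.61 CPM, or 10.8, 2.67, 2.56, 2.31 and 1.94 CPM per kb. Rpl24, a protein at the bridge between the subunits, had 12 to 72 counts in a library, and Rps10, at the entry of the mRNA channel, had 47 to 210. The level of Rpl24 in the young libraries was 1.46, 2.34 and 6.53 CPM (lowest, median and highest) and in the middle-aged 2.81, 3.01, 2.49, 1.00 and 1.99 CPM, again with overlap.

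Of these 5, 4 had another annotated row on the same strand over most of their span that held 0 counts in all libraries. The row Gm28037 covered 98.7% of Rpl24, Gm49383 92.4% of Rpl36al, Gm45713 88.6% of Rpl13a and RPS10-NUDT3 76.9% of Rps10. Rpl13 was also covered, to 100%, by such a row (Gm20388), yet held 797204 counts. How reads were shared between overlapping rows was not tested, and the levels of these 4 genes are uncertain. At the median 32.9% of the stretches of 100 bases in a gene's transcript also occurred in the transcripts of another gene, with a range from 0 to 98.4% and the highest in Rps27. Rows named for one of these genes with -ps held 0.728% as many counts as the genes, but 173% as many in the case of Rps10.

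**Figure D4:**
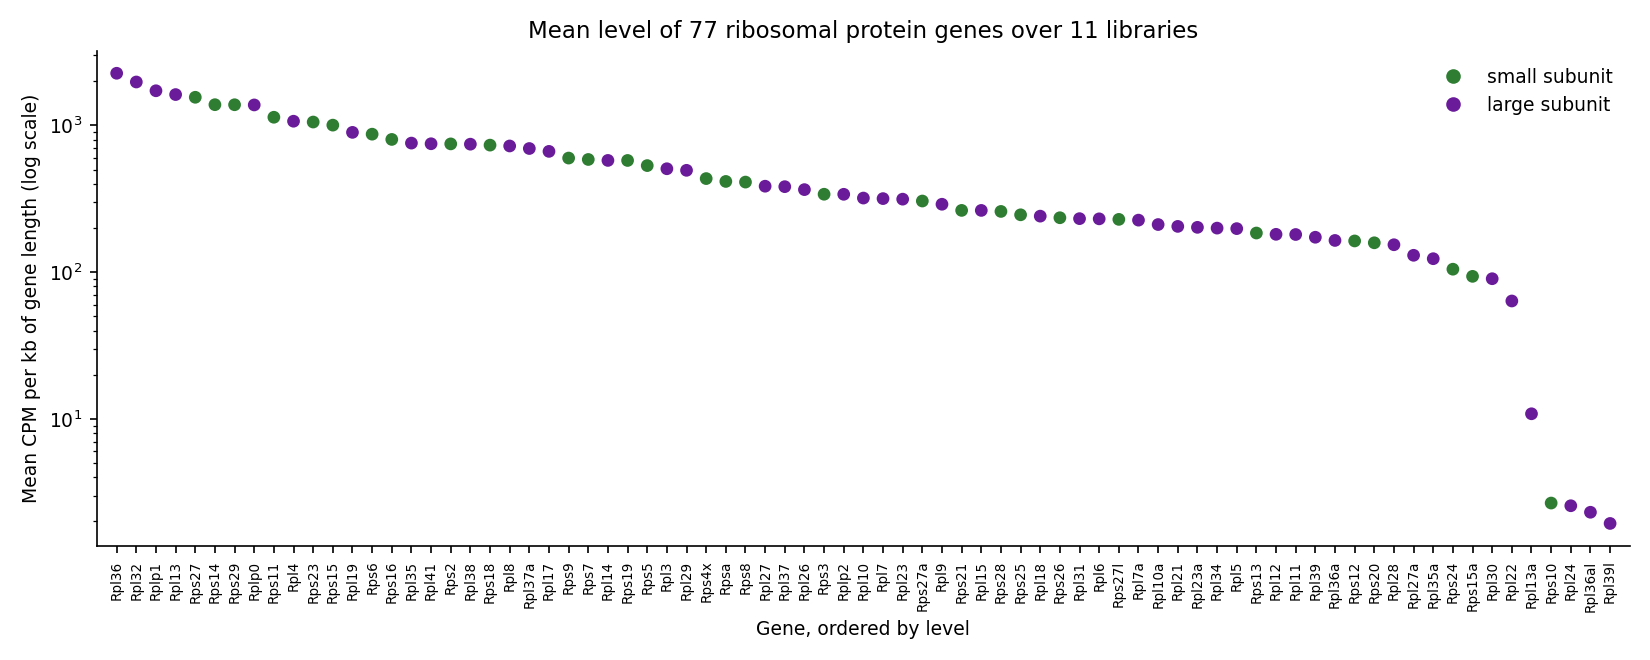
Points give the mean CPM per kb of gene length over 11 libraries for 77 tested genes, on a log axis and in descending order, with the subunit as the colour. The genes from Rpl36 (2268) to Rpl22 (63.6) form a continuous series, and Rpl13a, Rps10, Rpl24, Rpl36al and Rpl39l lie below it.

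The genes moved together from library to library. Their SD over the 11 libraries on the log2 scale was 0.54 at the median of the 74 genes, and after the common course (the median deviation of these genes in each library) was taken off, it was 0.13. For 55 of the 74 it was then below 0.2. Rps9 and Rpl37 were closest to the course, at 0.04 each.

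Rpl37a, a zinc-binding protein of the large subunit, departed from it most among the 74, at 0.55. It was at 598, 637 and 1085 CPM in young males 1, 2 and 3 and at 1076 and 1676 CPM in middle-aged males 1 and 2. In females it was at 1307, 1016 and 1108 CPM in the young and at 747, 599 and 952 CPM in the middle-aged. Relative to the course it was low in every library numbered 1 (-0.89 to -0.40) and high in every library numbered 3 (0.60 to 0.66), and it was also high in middle-aged male 2 (0.59). Rpl35 had the opposite order, from 0.31 to 0.53 in the libraries numbered 1 and from -0.40 to -0.31 in those numbered 3, as did Rps27l, a p53-induced relative of Rps27, except that it was also high in middle-aged female 2. Rpl3 was lowest in young female 1, at -0.76, and next in middle-aged male 1, at -0.32.

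**Figure D5:**
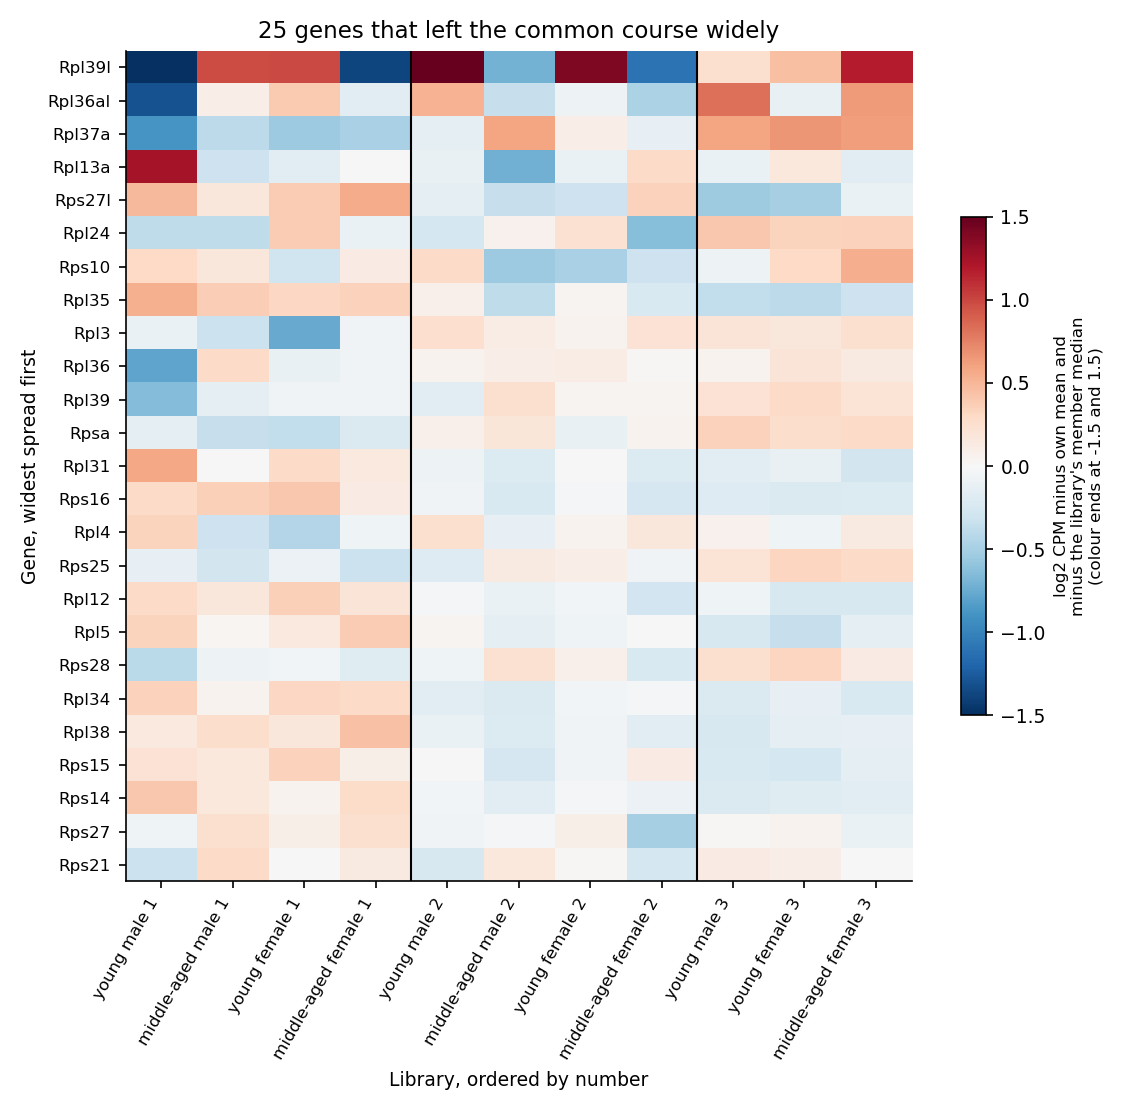
Colours give the log2 CPM of a gene minus its own mean and minus the median deviation of the ribosomal protein genes in that library, for 25 genes with a wide spread, with libraries ordered by number. Rpl37a runs from low in the libraries numbered 1 to high in those numbered 3, Rpl35 and Rps27l the other way, and Rpl39l and Rpl36al, with few counts, vary without such an order.

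Genes whose products belong to the ribosome but whose names fall outside the rule had similar values. Rps3a1, a core small subunit protein, averaged 1374 CPM over the young and 1285 CPM over the middle-aged libraries, a difference of -0.10 ± 0.25 (SE, edgeR). Fau, which encodes a ubiquitin-like protein fused to a small subunit protein, differed by 0.01 ± 0.33 for age (SE) and by 1.42 between the sexes (unadjusted p = 0.0226, edgeR), the 1 of 7 genes of this kind to pass an unadjusted p of 0.05. Of 18 other mRNAs known for a terminal oligopyrimidine tract, such as the elongation factors Eef1a1 and Eef2, 1 was higher at an unadjusted p of 0.05 for age (Vim) and 0 lower, with a median difference of -0.05, and their median difference between the sexes was 0.55 with 17 of 18 above zero. The ribosomal protein genes themselves were split by the tract at the annotated start. The 13 with it had a median age difference of -0.05, and the 46 without it exactly there had -0.08. These 46 included genes with such a run within 5 bases of the start, such as Rpl27a. The medians between the sexes were 1.25 for the 13 and 1.18 for the 46.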

How the data were processed

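RNA of FACS-sorted splenic CD8+CD44+Ly49+CD122+ T cells was made into SMARTer libraries and sequenced. The authors deposited whole-number counts per gene with no normalization, and the submitters' processing notes name kallisto and mm10. Versions are not given in the sources used here. How estimated counts became whole numbers is not stated, nor is a test for the sequencing data. The groups came from the labels. Counts were filtered with edgeR 4.0.16 (filterByExpr by age group, 13129 genes kept), scaled with TMM factors and fitted with the robust quasi-likelihood model of sex and age, and age by sex was tested in a model with that term. All p-values were adjusted by Benjamini-Hochberg over all genes tested. Exact two-sided permutation tests compared mean log2 CPM, with a prior count of 2, over every split of the 11 libraries into 6 and 5. They did not take sex into account. Log2 fold changes with SE are from the edgeR model, and differences within a sex or number are of mean log2 CPM. Each library's gene length slope is a linear slope on log2 gene length over the genes tested other than the ribosomal protein genes. It was fitted to each gene's log2 CPM minus its own mean over the libraries. The trend removed from each library was a lowess curve through the same values (span 0.3). Genes named in the text were chosen by role, as the 5 with the smallest p in each direction for age, and as the 3 highest and 3 lowest per kb. The genes discussed for age by sex or for their spread around the common course were chosen after their values were seen. The members and lists were chosen with earlier results of these data known. Alternatives used DESeq2 1.42.0, limma 3.58.1, other scalings and filters, replicate terms, gene length and single libraries left out. The values of 2 genes are not reported here. The code was tested on simulated data. With 2 to 3 libraries in a group, p-values measure the spread between these replicates.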

Additional observations from a re-analysis of the deposited data

Results flagged for a closer look

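Of 62 sets of values checked with Dixon's test (the young and the middle-aged libraries, for the share of counts and each gene named), 14 held a library far from the others, and chance flags about 1 in 20. In all 14 the library was young female 1, the second shallowest. The share of counts on the ribosomal protein genes was 11.04% there and 5.22% to 7.03% in the other young libraries. The genes with young female 1 far above the other young libraries were Rplp1 (1682 CPM), Rps27a (1191 CPM), Rpl11 (912 CPM), Rpsa (2025 CPM), Rpl10 (1245 CPM), Rpl39 (464 CPM), Rpl41 (1707 CPM), Rpl36a (529 CPM), Rpl36 (1535 CPM), Rps21 (400.1 CPM), Rpl13 (7110 CPM), Rpl24 (6.53 CPM) and Rpl32 (3935 CPM). In Rpl13 the next highest young library was at 4280 CPM. These genes share the library, so the flags are not independent of each other.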

How the results depend on the processing

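No ribosomal protein gene passed an adjusted p of 0.05 under any setting run. These were all settings for age, the main model, other scaling and the gene length slope for sex, and, for age by sex, the main model, other scaling, libraries left out, the slope, the library number, DESeq2 and limma voom. At an unadjusted p of 0.05 for age the count was 0 in the main model and with each library left out in turn, and 3 with limma voom, 1 with the gene length slope, 5 with that slope and the replicate block, 4 in males alone and 1 without young male 1 and young female 1 (chosen after seeing the data). The share of all genes at this unadjusted p was counted only in the main model. The counts in the other settings therefore cannot be set against a background. The median age difference was -0.09, and 0.58 in males alone, where the summed level differed by 0.58. Leaving out single libraries gave medians from -0.26 to 0.23 and summed differences from -0.21 to 0.15. For age by sex, 22 genes passed an unadjusted p of 0.05 (1.2% of all genes), from 7 to 53 with a library left out (0.202% to 4.06%), and 61 with the gene length slope (4.85%), 70 with the library number (4.18%) and 69 with limma voom (8.16%). The alternatives for age by sex were chosen after seeing the data, apart from other scaling factors. The median difference between the sexes ran from 0.67 to 1.52 with a library left out. The replicate block within sex gave a median age difference of -0.14 and 0 genes. Same-numbered libraries of a sex had correlated deviations of 0.32 and 0.18 in males and 0.43, 0.03 and 0.39 in females, so not every pair passed 0.1 and the numbers were not used as pairs. Over all genes, the count called for age was 3, and 112 with DESeq2, 138 with limma voom, 19 with the library number, 45 with the gene length slope, 17 with genes of at least 1 count, 6 without young male 1 and young female 1, and 0 in either sex alone. The cause of these changes was not tested. In the main model a single gene's age difference had an SE of 0.35 at the median.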

Other observations

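The 78 mitochondrial ribosomal protein genes, which serve the separate ribosome of the mitochondrion, had a partly different course over the libraries. Of them 77 were tested, and none passed an unadjusted p of 0.05 for age, with 53 below and 24 above zero and a median of -0.12 (edgeR). Their summed level was 12566, 9408, 12422 and 9028 CPM in young male 1, middle-aged male 1, young female 1 and middle-aged female 1, and 4146 to 5965 CPM in the other 7 libraries, so that all 4 libraries numbered 1 were the highest. Middle-aged male 2, with 5457 CPM, was not above young male 2, with 5553 CPM. The median difference between the sexes was 0.24, with 66 of 77 above zero. For the cytosolic genes it was 1.21, with 78 of 79 above zero. That the 2 sets differ in this was not tested.

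Of 36 ribosome biogenesis genes tested, none passed an unadjusted p of 0.05 for age or for age by sex, and the medians were -0.04 and -0.17 (edgeR). Of 13 genes of translation control through mTOR, none passed for age and 1 for age by sex, and the medians were 0.10 and -0.27. The rows named for a ribosomal protein gene with -ps, mostly pseudogenes, had a median difference between the sexes of 1.26 over the 87 tested, close to that of the genes they resemble.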
